A study of Rattus norvegicus with 36 samples.

Results

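A set of 10 genes of the connective tissue cells of the liver was followed in 36 rat livers after 5 days of dosing with decabromodiphenylethane (DBDPE), a brominated flame retardant. The genes were the collagen chains Col1a1, Col1a2 and Col3a1, the matrix proteins Sparc, Dcn and Lum, the protease inhibitor Timp1, the cytoskeletal genes Acta2 and Des, and the retinoid enzyme Lrat. They were chosen by name, and all 10 were found among the 14217 genes that the array measured. Of the probe sets, 13 named 1 of them alone, and 5 more named Acta2 together with Actc1 and were kept apart. Where a gene had several, the one of highest mean signal stood for it. Male Harlan Sprague Dawley rats, an outbred stock, were 7 weeks old at the start and received DBDPE in corn oil by gavage at 5 ml/kg. Each of the 6 groups had 6 samples, and the groups were corn oil vehicle alone and DBDPE at 0.1 mg/kg, 0.97 mg/kg, 9.71 mg/kg, 97.1 mg/kg and 970 mg/kg. The left liver lobe was taken 1 day after the last dose and its RNA was hybridised to Affymetrix expression arrays.

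Hepatic stellate cells lie between the liver endothelium and the hepatocytes and store vitamin A as retinyl esters, which Lrat makes. In injured liver they turn into contractile myofibroblasts that raise Acta2, the fibrillar collagens and Timp1, with TGF-beta and PDGF among the known signals. Portal fibroblasts, vascular smooth muscle and the cells of the liver capsule express several of the same genes, so that most of the 10 do not belong to 1 cell type alone. In whole liver RNA, fewer cells of a type and less RNA per cell cannot be told apart.

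The tissue label was checked first. All 9 hepatocyte markers measured, among them albumin (Alb) and Apoa1, lay above the array median in every array. Of 20 stellate cell markers, 14 lay above it in every array and 2, Ngfr and Gfap, lay below it in every array. Array medians ranged from 5.07 to 5.12 on the log2 scale, and pairs of arrays correlated at r = 0.993 to 0.997 across probe sets. The labels and the value table give no slide, scan or extraction batch, so that no within-batch value could be given. Nothing beyond the sample numbers says that the samples are separate animals; each was taken as 1 rat, and p-values measure only the spread between these samples.

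Sequence upstream of the genes was available for 7 of the 10 in the RefSeq promoter table of the rat build GRCr8. Windows of 250 bases that end just before the annotated start are shown for 4 of them, because these genes carry the patterns described below: Col1a2 and Sparc varied together most closely among the 7, Lum varied most between animals, and Lrat had r near 0 with Dcn. The windows lie at chr4:33518307-33518556 (plus strand) for Col1a2, chr10:40038817-40039066 (minus strand) for Sparc, chr7:34245456-34245705 (plus strand) for Lum and chr2:170571213-170571462 (minus strand) for Lrat. Each is written 5′ to 3′ along its gene, and capitals mark the 4 motifs named after the sequences, on either strand.
Col1a2: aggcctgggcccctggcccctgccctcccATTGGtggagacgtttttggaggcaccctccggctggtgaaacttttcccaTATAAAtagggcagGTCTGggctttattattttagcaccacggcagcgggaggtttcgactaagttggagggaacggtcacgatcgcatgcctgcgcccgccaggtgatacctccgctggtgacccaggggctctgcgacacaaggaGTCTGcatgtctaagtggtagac
Sparc: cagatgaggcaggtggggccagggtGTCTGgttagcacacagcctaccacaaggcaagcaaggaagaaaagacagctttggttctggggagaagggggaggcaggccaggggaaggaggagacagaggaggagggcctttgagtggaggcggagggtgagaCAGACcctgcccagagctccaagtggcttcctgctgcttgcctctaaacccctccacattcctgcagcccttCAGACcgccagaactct
Lum: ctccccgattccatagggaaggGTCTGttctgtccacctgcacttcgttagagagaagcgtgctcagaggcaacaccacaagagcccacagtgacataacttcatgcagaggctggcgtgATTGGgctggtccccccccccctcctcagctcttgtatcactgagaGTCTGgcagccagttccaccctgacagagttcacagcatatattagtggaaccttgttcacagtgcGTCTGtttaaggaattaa
Lrat: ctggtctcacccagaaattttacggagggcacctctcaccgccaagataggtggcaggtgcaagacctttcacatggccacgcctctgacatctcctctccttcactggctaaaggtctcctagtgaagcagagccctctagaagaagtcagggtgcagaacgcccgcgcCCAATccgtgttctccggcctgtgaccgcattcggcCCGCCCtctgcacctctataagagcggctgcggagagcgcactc
All motifs were searched on both strands, and no matches of different motifs overlapped. CAGAC, the core that SMAD proteins bind downstream of TGF-beta, was found in the windows of Acta2, Col1a2, Lum and Sparc, 4 of 7, while 42.9% of 33469 rat windows of this length hold it. CCAAT was found in Col1a2, Lrat and Lum, 3 of 7, against 34.0% of all windows, and GGGCGG in Des, Lrat and Timp1, 3 of 7, against 30.5%. TATAAA was found in Col1a2 alone, 170 bases before the annotated start, against 12.9% of all windows. GCGTG, the core that the aryl hydrocarbon receptor binds and that is not in capitals, was found in Lrat and Lum, 2 of 7, against 25.9%. TGANTCA, the AP-1 site, was found in 0 of 7, against 6.34% of all windows. The CArG box of smooth muscle promoters was found in 0 of 7 in its strict form, with A or T at all 6 inner bases, against 1.5% of all windows. With 1 inner base allowed to be C or G it was found in Acta2, at 134 and 84 bases before the start, and in Lrat, 2 of 7, against 6.84% of all windows. These matches are letters in a window and say nothing about binding in these livers.

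The first question was whether any dose moved these genes. No member passed the threshold at any dose. The collagen chains, which build the fibrils of scar and of normal portal tissue, overlapped with vehicle throughout. Col3a1, the chain of type III collagen, lay at a lowest, median and highest log2 signal of 10.91, 11.22 and 11.40 at 970 mg/kg, against 10.77, 11.27 and 11.53 in vehicle. Its difference at 970 mg/kg was -0.02 (95% interval -0.24 to 0.21). Col1a2, a chain of type I collagen, lay at 7.71, 8.48 and 8.64 at 970 mg/kg, against 7.83, 8.50 and 9.01 in vehicle, a difference of -0.14 (-0.52 to 0.23). Col1a1, the other chain of that molecule, lay at 6.29, 6.52 and 6.96 at 970 mg/kg, against 6.02, 6.52 and 6.97 in vehicle, a difference of 0.05 (-0.26 to 0.36). All values of Col1a1 and Col3a1 at the highest dose lay within the vehicle range, and for Col1a2 all but the lowest did. Sparc, a secreted protein that binds collagen, lay at 10.61, 10.74 and 10.93 at 970 mg/kg, against 10.65, 10.92 and 11.09 in vehicle, with a difference of -0.13 (-0.30 to 0.03).

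Dcn (decorin) and Lum (lumican) are small leucine-rich proteoglycans that coat collagen fibrils and set their spacing. They had the widest spread of the 10. Dcn lay at 6.43, 6.63 and 7.07 at 970 mg/kg, against 6.13, 6.93 and 7.46 in vehicle, a difference of -0.17 (-0.71 to 0.37). Lum lay at 6.35, 6.92 and 7.69 at 970 mg/kg, against 4.69, 7.25 and 8.00 in vehicle, a difference of 0.11 (-0.90 to 1.12). The lowest vehicle animal was below all 6 animals of the top dose for both genes, and the highest vehicle animal was above them. At 0.1 mg/kg Lum lay at 4.46, 6.25 and 7.23 and differed from vehicle by -0.90 (-1.91 to 0.11), the largest of the 50 differences between a dose and vehicle. Dcn lay at 5.76, 6.33 and 6.97 at that dose and differed by -0.54 (-1.08 to 0.01). Both had a limma adjusted p of 0.999 there.

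Timp1 inhibits matrix metalloproteases and marks activated stellate cells. It lay at 6.61, 6.86 and 7.11 at 970 mg/kg, against 6.46, 7.01 and 7.47 in vehicle, a difference of -0.08 (-0.32 to 0.16). Acta2, smooth muscle alpha-actin, is the usual marker of myofibroblasts and lay at a lowest of 5.27 and a highest of 5.66 at 970 mg/kg, against 5.12 and 5.63 in vehicle, a difference of 0.07 (-0.13 to 0.27). Des (desmin), an intermediate filament of quiescent rat stellate cells and of muscle, lay at 5.28, 5.43 and 5.60 at 970 mg/kg, against 5.25, 5.60 and 5.95 in vehicle, a difference of -0.17 (-0.38 to 0.04). All values of Timp1 and Des at 970 mg/kg lay within the vehicle range, and the highest Acta2 value lay just above it. Lrat, the enzyme of vitamin A storage, lay at 8.21, 8.38 and 8.63 at 970 mg/kg, against 8.26, 8.59 and 8.75 in vehicle. Its difference of -0.18 (-0.35 to -0.01) had an unadjusted limma p of 0.0436 and an adjusted p of 0.966, and 5 of its 6 values at 970 mg/kg lay below the vehicle median. Its slope per dose step, -0.03 (-0.06 to 0.0017), had the lowest adjusted p of any member in any limma test, 0.875.

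**Figure D1:**
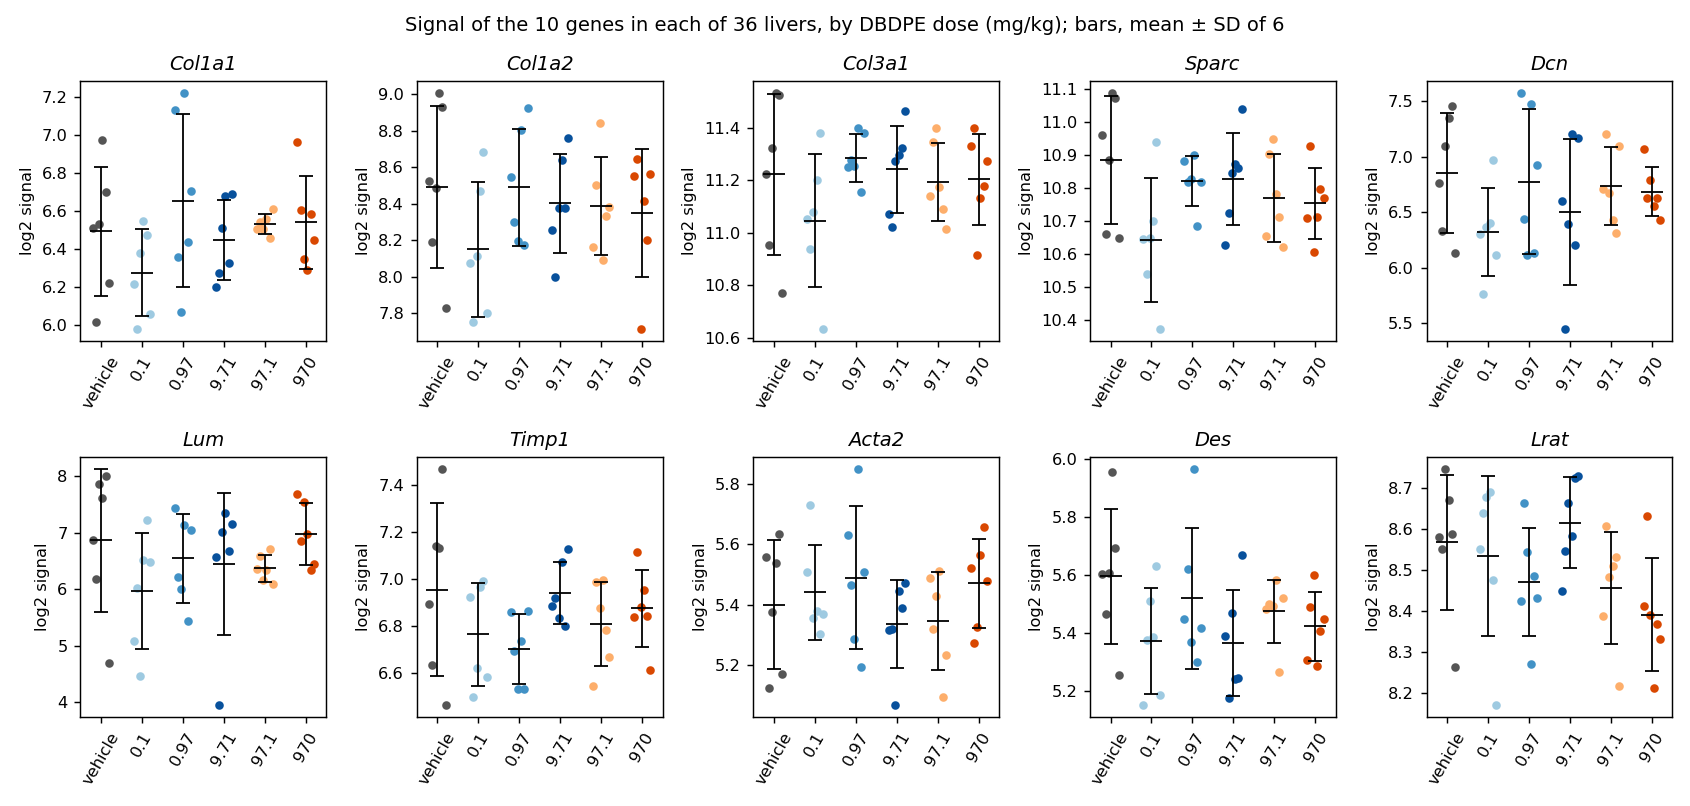
Log2 signal of each gene (one panel a gene, each with its own vertical scale) in the 36 livers by dose, vehicle at the left; points are animals and bars the mean ± SD of 6. The groups overlap in every panel, and the single lowest Lum value is 3.95 at 9.71 mg/kg.

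Counted over all doses, 0 of 10 members passed limma at an adjusted p under 0.05 at each of the 3 lowest doses, where 0% of all 31042 probe sets passed. At 97.1 and 970 mg/kg, in the F test over the 5 doses and in the slope on the dose step, 0 of 10 passed as well, and 0.00644% of all probe sets passed in each. The 2 probe sets behind that share were Cyp1a1 and Cyp1a2, the xenobiotic-metabolising targets of the aryl hydrocarbon receptor, with log2 differences of 6.23 and 0.86 at 970 mg/kg. At an unadjusted p under 0.05 there were 2 members at 0.1 mg/kg, 1 each at 0.97, 9.71 and 970 mg/kg and 0 at 97.1 mg/kg, in the F test and for the slope. Of all probe sets, 4.46%, 4.92%, 5.06%, 5.42% and 4.87% were under it from the lowest dose to the highest, 4.18% in the F test and 5.7% for the slope. Sparc at 0.1 mg/kg differed by -0.24, with an unadjusted limma p of 0.00549 and an adjusted p of 0.999, and lay at 10.37, 10.65 and 10.94 there. The others were Des at 0.1 mg/kg (-0.22), Timp1 at 0.97 mg/kg (-0.25), Des at 9.71 mg/kg (-0.23) and Lrat at 970 mg/kg, with limma adjusted p between 0.966 and 0.999. All 5 differences were below 0. These counts rest on 1 probe set a gene, and the second Sparc probe set, above the array median in all 36 arrays, gave other values. It lay at 7.06, 7.33 and 7.57 at 0.1 mg/kg, against 7.404, 7.72 and 8.30 in vehicle, with overlap. Its difference was -0.46 at 0.1 mg/kg, with an unadjusted limma p of 0.000656 and an adjusted p of 0.999. At 97.1 mg/kg it differed by -0.27, with an unadjusted limma p of 0.0331 and an adjusted p of 0.9004. Its limma F test had an unadjusted p of 0.0211 and an adjusted p of 0.999.

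More members lay below vehicle than above it at every dose. Differences below 0 were found for 9, 7, 8, 9 and 7 of the 10 members from the lowest dose to the highest, while between 49.5% and 51.9% of all probe sets lay below 0. The members' median difference was -0.22, -0.07, -0.06, -0.11 and -0.11 from the lowest dose to the highest, against medians of all probe sets between -0.004 and 0.001. The 5 comparisons share the same 6 vehicle animals, and the members vary together, so the counts are not independent of each other. For 44 of the 50 differences the 95% interval lay wholly between -1 and 1, a change of less than 2-fold either way. The other 6 belonged to Dcn and Lum. In 0 of the 50 did the animals of a dose lie wholly apart from the vehicle animals, as was found for 0.139%, 0.235%, 0.18%, 0.151% and 0.2% of all probe sets from the lowest dose to the highest.

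**Figure D2:**
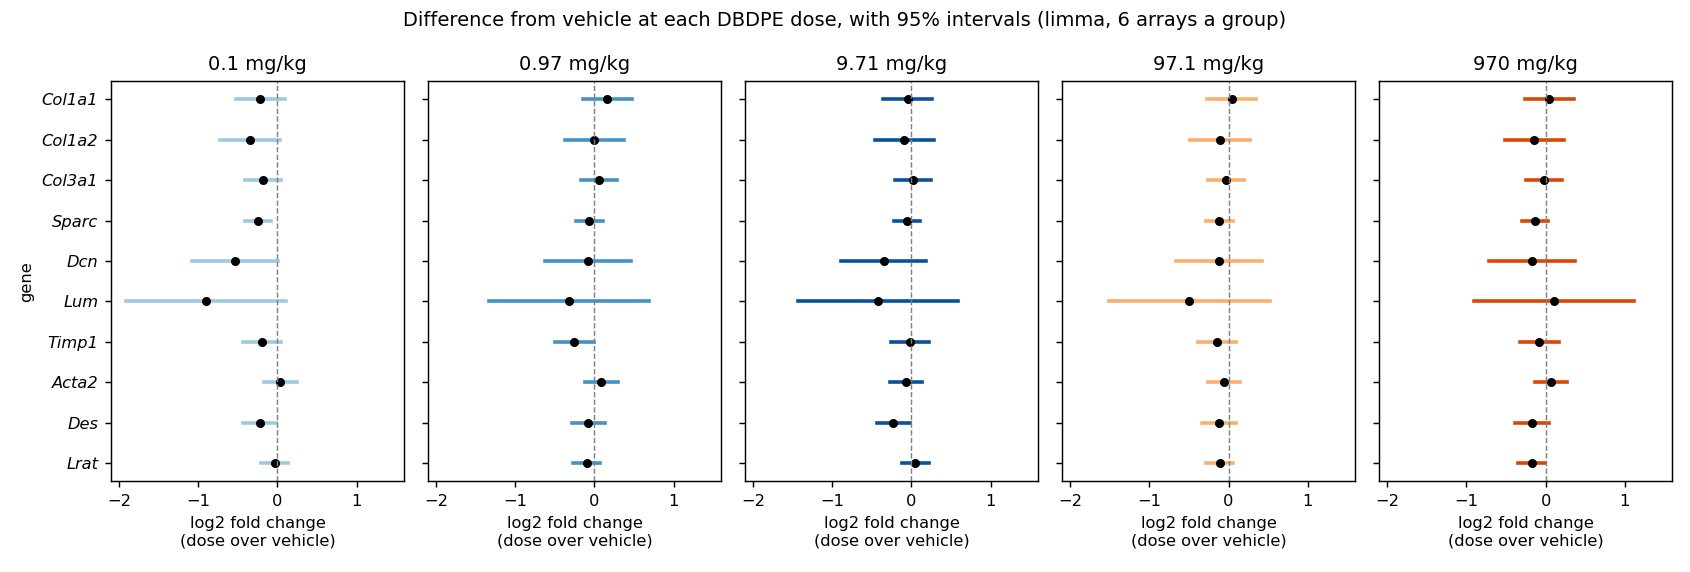
Log2 difference of each dose from vehicle for the 10 genes (points) with 95% intervals from limma (bars). Most points sit left of 0, the intervals of Lum are the widest, and none of the differences passed the adjusted threshold.

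The genes differed much more between animals of 1 group than between groups. The pooled within-group SD of Lum was 0.931 on the log2 scale, at percentile 99.9 of all probe sets, and its signal ran from 3.95 to 8.00 over the 36 livers, a 16.5-fold range. Dcn had an SD of 0.497 (percentile 99.2) and a 4.38-fold range. Col1a2 had an SD of 0.342 (percentile 97.8) and Col1a1 of 0.282 (percentile 96.3). The other 6 had smaller SDs, 0.218 for Timp1, 0.203 for Col3a1, 0.186 for Des, 0.180 for Acta2, 0.149 for Lrat and 0.145 for Sparc, against a median of 0.137 over all probe sets. Group means accounted for between 11.3% (Acta2) and 24.9% (Sparc) of the variance of the 10. Means of 6 animals also differ through the spread between animals alone, so these shares are not a measure of dose. In the limma F test 0 of the 10 had an unadjusted p under 0.05. The relations between genes described next were taken after the group means were removed.

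With group means removed, most of the 10 genes varied together across the 36 livers. Of the 45 pairs, 44 had a Pearson r above 0 and 26 had an r of 0.5 or more, with a median of 0.54. A permutation test within groups, adjusted over the 45 pairs by Benjamini-Hochberg, passed 32 pairs by Pearson r and 31 by Spearman rho, all 32 of the first with a positive r. An r of 0.5 or more was reached with Col3a1 by 8 of the other 9 members and by 1.74% of all 14216 other genes, with Sparc by 7 of 9 (1.42%), with Col1a2 by 6 of 9 (1.49%) and with Col1a1 by 7 of 9 (1.11%). With Dcn it was reached by 7 of 9 (0.929%), with Lum by 5 of 9 (0.584%) and with Timp1 by 6 of 9 (1.86%). With Des it was reached by 4 of 9 (0.394%), with Lrat by 2 of 9 (1.26%) and with Acta2 by 0 of 9 (0.324%). These values come from the same 36 arrays, and the correlation does not say which cell type the transcripts came from.

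The closest pairs joined the collagens with Sparc. Col3a1 and Sparc had r = 0.93 and rho = 0.87, with an adjusted permutation p of 0.000112 for r and 9e-05 for rho, and r = 0.91 without the 2 animals farthest from the Col3a1 median. The unadjusted p was 1e-05, the smallest that 100000 permutations can give. Within single groups their r lay between 0.70 and 0.98, above 0 in 6 of 6 groups. Col1a2 followed both, at r = 0.88 (rho = 0.88) with Col3a1 and r = 0.80 (rho = 0.78) with Sparc, each with the same adjusted p for r and with r = 0.84 and 0.78 without the 2 farthest animals. In 6 of 6 groups both pairs were positive. Timp1 joined them at r = 0.72 (rho = 0.68) with Sparc, adjusted p = 0.000169, and kept r = 0.71 without the 2 farthest animals. The relations of Sparc depended on its probe set. The second one had r = 0.46 with Col3a1, 0.30 with Col1a2 and 0.18 with Timp1, and the mean of both had r = 0.76, 0.64 and 0.46 with these genes.

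Col1a1 codes for the partner chain of Col1a2, but the probe set used for it had its highest r with Dcn. This order depended on the probe set, as the second one of Col1a1 had r = 0.72 with Col1a2 and 0.69 with Dcn. Col1a1 and Dcn had r = 0.79 and rho = 0.81, with an adjusted permutation p of 0.000112 and r = 0.77 without the 2 farthest animals, and the pair was positive in 6 of 6 groups. Col1a1 and Col1a2 had r = 0.69 and rho = 0.73, with an adjusted permutation p of 0.0002 and r = 0.69 without the 2 farthest animals, and the pair was positive in 5 of 6 groups. Dcn and Lum, which lie next to each other on chromosome 7 in the RefSeq gene order, had r = 0.74 and rho = 0.73, with an adjusted permutation p of 0.000169 and r = 0.65 without the 2 farthest animals. Dcn and Col3a1 stood at r = 0.59 (rho = 0.58, adjusted permutation p = 0.000519, r = 0.57 without the 2 farthest animals). Differences between these correlations were not tested.

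Lrat and Acta2 were the least tied to the rest. Lrat had r = 0.57 (rho = 0.50) with Col3a1, with an adjusted permutation p of 0.00358 for r and 0.00779 for rho. That r was 0.31 (permutation p = 0.0767) once the 2 animals farthest from the Col3a1 median (vehicle animal 6 and animal 6 at 0.1 mg/kg) were left out. With Sparc, Lrat had r = 0.52 (rho = 0.42, adjusted permutation p = 0.00936 for r). That r was 0.55 (permutation p = 0.0032) without the 2 animals farthest from the Sparc median (animals 5 and 6 at 0.1 mg/kg). Vehicle animal 6 was kept there. The second Sparc probe set had r = 0.21 with Lrat. Lrat had r = 0.03 (rho = -0.01, adjusted permutation p = 0.892) with Dcn. Within single groups the r of Lrat with Dcn lay between -0.71 (0.97 mg/kg) and 0.75 (vehicle), above 0 in 3 of 6 groups. Acta2 reached 0.5 with 0 of the other 9. Its closest member was Col1a1 at r = 0.47 (rho = 0.35), with an adjusted permutation p of 0.0295 for r and 0.0882 for rho. That r was 0.34 (permutation p = 0.0965) without the 2 animals farthest from the Col1a1 median. How far the relations of Lrat with Col3a1 and of Acta2 with Col1a1 depend on the animals left out was not tested. Des reached r = 0.59 (rho = 0.53) with Dcn, with an adjusted permutation p of 0.00295 and r = 0.64 without the 2 farthest animals.

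**Figure D3:**
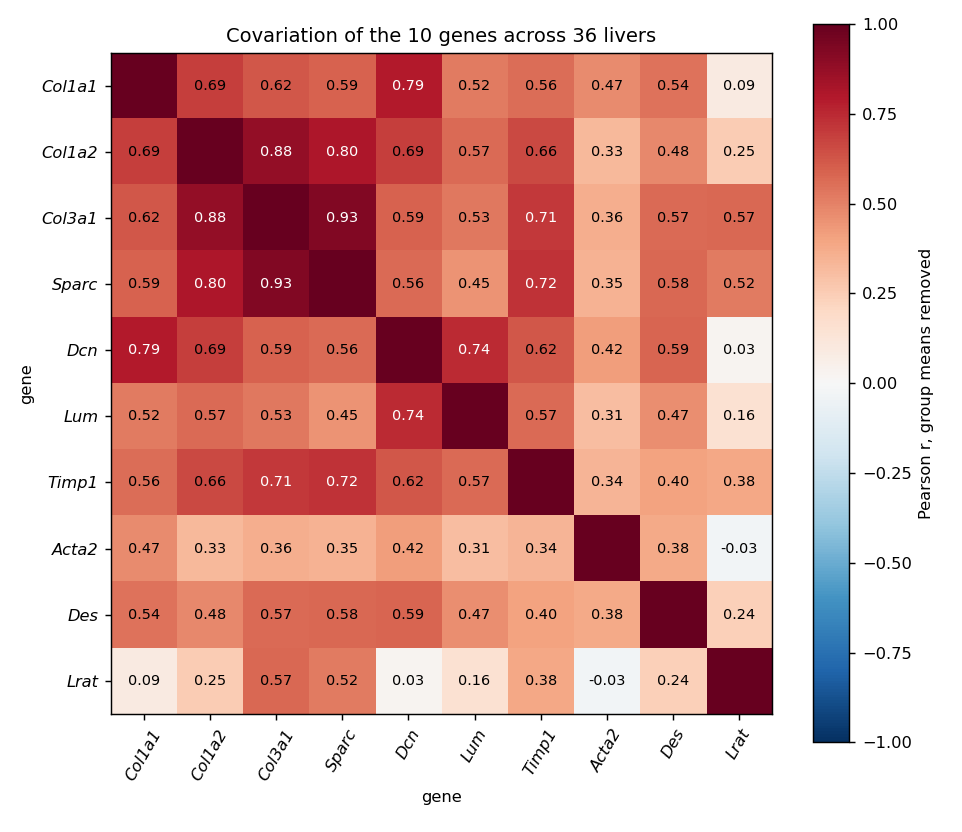
Pearson r of each pair of the 10 genes over 36 livers after group means were removed, from blue (-1) to red (1). The darkest block joins Col1a2, Col3a1 and Sparc, with Col3a1 and Sparc at 0.93, and the Lrat row is near 0 with Col1a1, Dcn and Acta2.

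**Figure D4:**
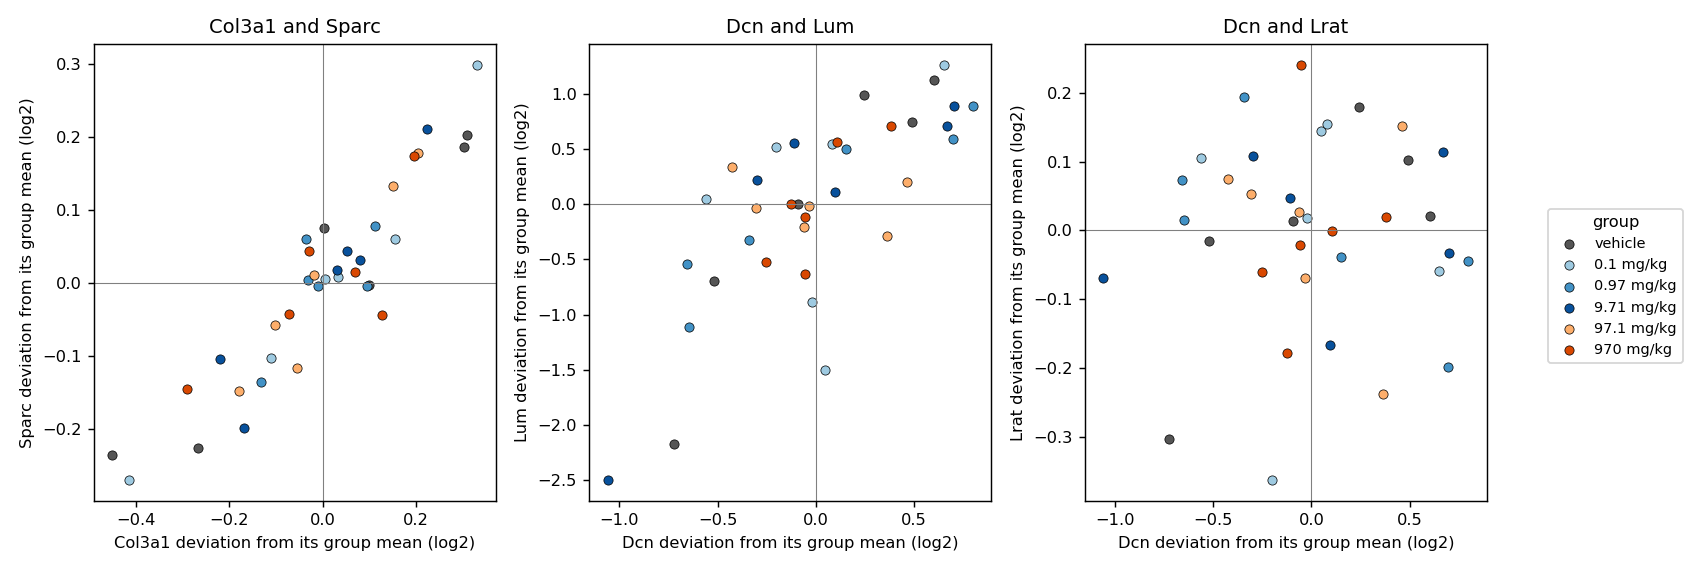
Deviation of each animal from its group mean on the log2 scale for Col3a1 and Sparc (left, r = 0.93), Dcn and Lum (middle, r = 0.74) and Dcn and Lrat (right, r = 0.03); points are animals coloured by group. The points follow a line in the left panel and, over all groups together, have no slope in the right one. In that panel r was 0.75 within vehicle and -0.71 within 0.97 mg/kg.

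Different probe sets of a gene gave an internal check on these measures. The 2 probe sets of Col1a2 correlated at r = 0.92 and those of Col1a1 at 0.86, with group means removed. Those of Sparc reached 0.42. The Acta2 probe set used here had a mean log2 signal of 5.41, close to the array medians, and lay above them in 34 of 36 arrays. It had r between -0.19 and 0.21 with the 5 probe sets that Acta2 shares with Actc1, cardiac alpha-actin, all of which lay below the array median in every array.

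Covariation was not alike in the 6 groups. In vehicle all 45 pairs had an r of 0.5 or more, with a median of 0.88 over 6 animals, and 22 pairs passed an exact permutation test adjusted over 45 pairs. From the lowest dose to the highest, median r was 0.41, 0.70, 0.56, 0.17 and 0.08, with 21, 32, 29, 12 and 8 pairs at 0.5 or more. At each of the 5 doses 0 pairs passed the exact test, and 10, 11, 10, 1 and 2 had an unadjusted exact p under 0.05. With 6 animals the smallest exact p is 0.00139. The difference in covariation between groups was not tested. The median SD over the 10 genes was also highest in vehicle, at 0.323, against 0.225, 0.240, 0.175, 0.155 and 0.169 from the lowest dose to the highest. By gene, 5 of the 10 had their highest SD in vehicle, 3 at 0.97 mg/kg and 1 each at 0.1 and 9.71 mg/kg. The part of this spread in the difference in r was not tested. With the vehicle group left out, 20 of the 45 pairs passed over the other 30 animals, with a median r of 0.43 and 41 pairs above 0. Leaving out any other group left between 28 and 38.

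**Figure D5:**
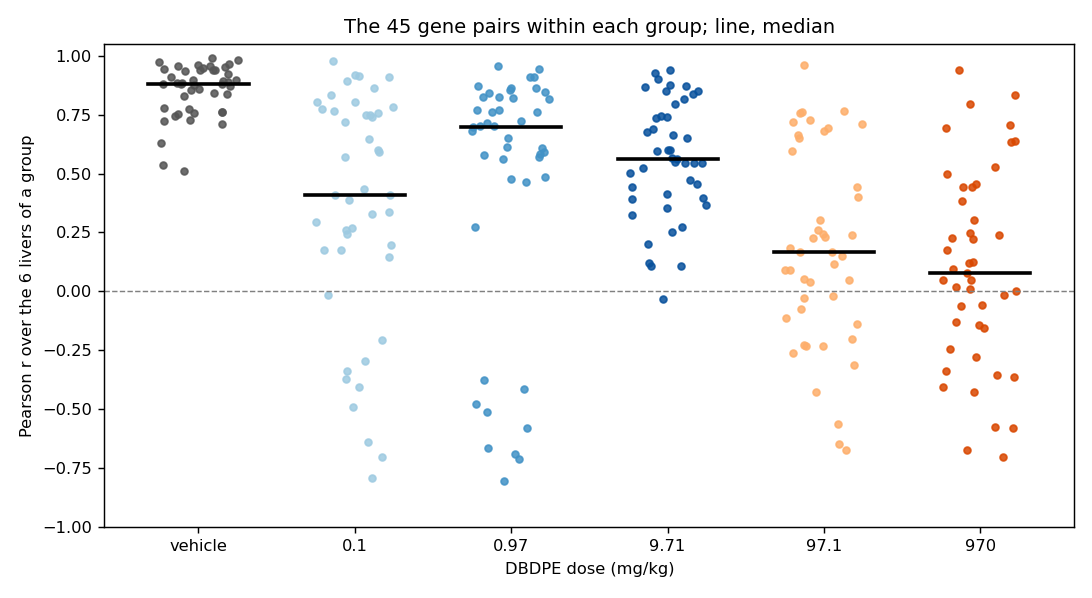
Pearson r of the 45 gene pairs within each group of 6 livers (points, spread sideways for view) and their median (line), by DBDPE dose with vehicle at the left. Vehicle values all lie above 0.5, with a median of 0.88, and the medians at 97.1 and 970 mg/kg are 0.17 and 0.08.

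Some animals lay on 1 side of their group mean for all 10 genes. Vehicle animals 4 and 5 and animal 6 at 9.71 mg/kg lay above their group mean for 10 of 10 members, whereas vehicle animals 2 and 6 and animal 2 at 9.71 mg/kg lay below it for 10 of 10. Such animals numbered 3 at each end of the 36. Vehicle animal 6 deviated from its group mean by -0.45 for Col3a1, -2.17 for Lum and -0.30 for Lrat on the log2 scale. It had the lowest deviation of all 36 animals for Col1a2, Col3a1, Timp1 and Des. Without it the number of pairs that passed was 25, the smallest count from leaving out 1 animal.

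For each member the 3 genes with the highest r among the 14216 others were named, over 36 animals with group means removed and as a description with no test. Col3a1 was followed by Sparc, by Igfbp7 (r = 0.92), a secreted binding protein of insulin-like growth factors, and by Col1a2. Sparc was followed by Col3a1, Igfbp7 (0.87) and Fstl1 (0.83), a secreted relative of follistatin. Col1a2 was followed by Col3a1, Fstl1 (0.84) and the actin-binding protein Tagln (0.82). Igfbp7 was thus named for both Col3a1 and Sparc, and Fstl1 for both Sparc and Col1a2. Dcn was followed by the matrix Gla protein Mgp (0.81), Ecm2 (0.80) and Col1a1, and Col1a1 by Dcn, the collagen VI chain Col6a2 (0.75) and the tropomyosin Tpm2 (0.74). Lum was followed by Dcn, the cyclophilin Ppic (0.67) and Tac3 (0.67). Timp1 was followed by Lhfpl6 (0.83), the collagen chaperone Serpinh1 (0.82) and Fstl1 (0.82).

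The nearest genes of the remaining members were others. Acta2 was followed by the actin cross-linker Flna (0.69), the neurofilament Nefh (0.64) and Fcer1a (0.64), a chain of the IgE receptor. Des was followed by the calcium channel subunit Cacna2d1 (0.72), Cpz (0.65) and the cation channel Trpc6 (0.62). Lrat was followed by the protease Prss23 (0.74), the actin-binding protein Dbn1 (0.73) and the proteoglycan Bgn (0.70).

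The wider matrix was then examined with lists drawn from general knowledge of liver biology. The 5 lists of matrix genes (fibrillar and associated collagens, basement membrane and microfibril proteins, proteoglycans and matricellular proteins, collagen processing enzymes, and matrix proteases with their inhibitors) held 83 measured genes beyond the members. Of these, 0 passed limma in either direction at any dose. At an unadjusted p under 0.05 there were 6, 1, 5, 3 and 0 from the lowest dose to the highest, or 7.23%, 1.20%, 6.02%, 3.61% and 0%, against the 4.46% to 5.42% of all probe sets given above. At 970 mg/kg 51 of 83 lay below vehicle, with a median of -0.03, against 51.9% of all probe sets. At 0.1 mg/kg 62 of 83 lay below it, with a median of -0.09, against 50.4% of all probe sets. Both comparisons share the same vehicle animals, and part of these genes vary with the members, so the counts are not independent. The largest differences at 970 mg/kg in each list, none of which passed the threshold, were Col12a1 (-0.21) and Col5a1 (-0.09) among fibril collagens, Col6a3 (-0.44) and Efemp1 (-0.33) in basement membranes and microfibrils, Ccn1 (0.31) and Aspn (-0.20) among proteoglycans and matricellular proteins, Loxl1 (-0.20) and Loxl2 (-0.13) among crosslinking enzymes, and A2m (-0.32) and Adamts1 (-0.18) among proteases and inhibitors.

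The signalling and cell type lists gave the same count. Over the 19 lists, 236 genes were measured, and 0 of them passed limma at any dose, in the F test or for the slope. In the TGF-beta pathway 0 of 18 passed, with the receptor decoy Bambi at -0.27 and the inhibitory Smad7 at -0.19 at 970 mg/kg. In the PDGF pathway 0 of 6 passed, with the ligands Pdgfc at 0.12 and Pdgfa at 0.09. In vitamin A handling 0 of 20 passed, with the retinoic acid hydroxylase Cyp26b1 at -0.23 and the retinal dehydrogenase Aldh1a3 at -0.18. In the stellate cell list 0 of 20 passed, with Rgs5 at 0.25 and Nes at 0.19, and in the smooth muscle list 0 of 16, with Actg2 at 0.27 and Tagln at -0.22. Portal fibroblast genes gave 0 of 11, with Dpt at 0.40 and Mfap4 at -0.28, and mesothelial genes gave 0 of 5, with Lrrn4 at -0.21 and Msln at 0.17.

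Markers of other cells gave 0 of 10 in endothelium (Fcgr2b -0.20, Stab1 -0.13), 0 of 9 in macrophages (Cd5l 0.40, Clec4f 0.28), 0 of 7 in bile duct (Krt19 0.24, Krt7 0.15), 0 of 9 in hepatocytes (Tat -0.09, Apoa1 -0.04) and 0 of 4 in neutrophils (S100a9 0.35, Camp 0.14) at 970 mg/kg. Acute phase genes gave 0 of 11, with A2m, which is also in the protease list, and Orm1 at 0.23. Cell cycle genes gave 0 of 10 by adjusted p, with Ccnb1 at 0.65 and Ccnb2 at 0.62, and 7 of the 10 had an unadjusted p under 0.05 at that dose, against 4.87% of all probe sets.

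The same lists showed which genes varied with the members between animals. Of the 83 matrix genes, 29 (34.9%) had an r of 0.5 or more with Col3a1, 20 (24.1%) with Dcn, 9 (10.8%) with Lrat and 4 (4.82%) with Acta2. With Col3a1 the count was 6 of 8 fibrillar and associated collagens, 12 of 26 basement membrane and microfibril genes, 7 of 16 proteoglycans and matricellular genes, 4 of 16 processing enzymes and 6 of 23 proteases and inhibitors. The highest in each, chosen after their values were seen, were Col1a2, the elastic fibre protein Fbln5 (0.83), Sparc, Serpinh1 (0.86) and the gelatinase Mmp2 (0.72). Of the stellate cell markers 8 of 20 reached 0.5 with Col3a1, led by Tcf21 (0.72), a transcription factor of these cells, and Gpc3 (0.71), against 1 of 19 with Dcn. For smooth muscle and contractile genes the counts were 4 of 16 with Col3a1 and 6 of 16 with Dcn. Tpm2, the highest of them with Dcn, stood at 0.78 with Dcn and 0.49 with Col3a1. The highest r of this list with Col3a1 was 0.81. These counts include members that the lists hold. Dcn, Des and Lrat were among the 8 stellate cell markers with Col3a1, and Des was the 1 with Dcn. Des was also in both smooth muscle counts. Neither difference between Col3a1 and Dcn was tested.

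Markers of other cells varied with some members and not with others. With Col3a1 an r of 0.5 or more was reached by 0 of 10 endothelial, 0 of 9 macrophage, 0 of 9 hepatocyte, 0 of 4 neutrophil, 0 of 11 acute phase and 0 of 10 cell cycle genes, by 1 of 7 bile duct genes and by 2 of 11 portal fibroblast genes. It was reached by 2 of 5 mesothelial genes, Upk1b (0.60) and Msln (0.59), which mark the covering of the liver surface. Upk1b and Msln also had an r of 0.64 and 0.54 with Lrat, against 0.17 and 0.28 with Dcn. All 9 macrophage markers had a positive r with Lrat, with a median of 0.41 and a highest of 0.55 (Adgre1), and all 9 had a negative r with Col1a1 and with Dcn (medians -0.17 and -0.14). The bile duct gene Anxa2, which other cells also express, had r = 0.75 with Timp1 and 0.68 with Col3a1. It was the only 1 of the 7 bile duct genes at 0.5 or more with either, and the medians of the 7 were 0.02 and 0.20. Among hepatocyte genes, r with Col1a2 was 0.57 for Ttr and -0.72 for Hpd. These genes were chosen after their values were seen, and the part of other cell types in the members' signal was not tested. The summed signal of the 5 mesothelial markers lay between 8.74 and 9.38 at 970 mg/kg and between 9.05 and 9.23 in vehicle on the log2 scale.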

How the data were processed

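Liver RNA of 36 samples was measured on 1-colour Affymetrix arrays. RMA and affy are named in the submitters' processing notes (versions not given in the sources used here), and the table that the authors deposited holds log2 values, 1 per probe set and sample, from 1.80 to 14.68. Of 31099 probe sets, 57 controls were left out and no filter on low values was applied. Genes were named from the platform annotation, with symbols updated through the RefSeq table of GRCr8, and each gene was represented by its probe set of highest mean. Levels were not compared between probe sets.

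Each dose was compared with vehicle by two-sided tests of limma 3.58.1, run under R 4.3.3 with all 36 arrays in 1 fit, with Benjamini-Hochberg adjustment over all 31042 probe sets and a threshold of 0.05. A fold change is given as a log2 difference, dose minus vehicle. An F test covered the 5 doses and a slope was fitted on the dose step. The study's design text names the R/maanova package and a false discovery rate under 5%, which limma replaces here. Covariation between genes was Pearson r and Spearman rho after group means were removed, with two-sided permutation within groups (100000 permutations, 10000 for alternatives, all 720 orders within a group of 6) and Benjamini-Hochberg adjustment over 45 pairs. Both methods were tested on simulated data.

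Named genes were all members, for each list the genes past the threshold or else the 2 largest differences at 970 mg/kg outside the members, and the 3 genes most like each member. The members and lists were chosen with earlier results of these data known. Over 90 pairs of same-numbered samples, residuals had a mean correlation of 0.00485 (-0.25 to 0.26, 15 of them over 0.1), so the numbers were not taken to pair samples. The number of arrays limits the precision. Alternatives were a replicate block, 2 other normalizations, array weights, an intensity trend, the beta-actin 3′ to 5′ difference as a covariate (1.02 to 1.33 over the arrays), averaging the probe sets of each gene, a filter on low values, the 12 arrays alone, other adjustments, and each array left out.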

Additional observations from a re-analysis of the deposited data

Results flagged for a closer look

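The 2 values below stood far from the other 5 of their group by Dixon's test, out of 78 groups of 6 tested over the 13 probe sets, where chance flags about 1 in 20 (3.9 of 78). The Lum signal of animal 2 at 9.71 mg/kg was 3.95, with the nearest other animal at 6.57. The same animal lay below its group mean for 10 of 10 members. The Des signal of animal 5 at 97.1 mg/kg was 5.27, with the nearest other animal at 5.48.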

How the results depend on the processing

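The count of members past the threshold was 0 under each of the 326 recomputations of the 7 limma tests, with a lowest adjusted p of 0.762 (Lrat, slope, without 0.1 mg/kg replicate 6). With the replicate block the count was 0 in each, and 32 pairs passed. Members below vehicle numbered 8 to 10, 5 to 8, 5 to 10, 7 to 10 and 5 to 9 from the lowest dose to the highest. Differences near 0 turned in sign: at 970 mg/kg Col1a1 was -0.0055 with the mean of its probe sets and -0.047 to 0.14 without 1 array, and Timp1 was 0.0023 with the beta-actin covariate and -0.18 to 0.023 without 1 array. Without 1 array Col3a1 lay between -0.11 and 0.045 and Lum between -0.33 (without vehicle replicate 6) and 0.33 (without vehicle replicate 5). The other 13 of 17 differences and slopes followed kept their sign throughout.

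Between 29 and 32 pairs passed under 8 other settings and between 25 and 37 without 1 array. The count was 0 within each of the 5 dose groups, where 6 animals limit the test, and 20 over all arrays but vehicle, a choice made after seeing the data. The sign was followed for 12 chosen pairs. Of these, Dcn with Lum (-0.31) and Col1a1 with Col1a2 (-0.12) turned in sign within 97.1 mg/kg. Dcn with Des turned within 970 mg/kg (-0.13), Col3a1 with Lrat within 0.97 mg/kg (-0.51) and Col1a1 with Acta2 within 0.1 mg/kg (-0.70). Pairs not followed turned as well, among them Dcn with Acta2 (-0.79 within 0.1 mg/kg) and Col1a1 with Lum (-0.65 within 97.1 mg/kg). Dcn with Lrat, near 0, was -0.0129 by rho, -0.0332 with group means kept, -0.0147, -0.71 and -0.26 within 0.1, 0.97 and 97.1 mg/kg, -0.15 without vehicle, -0.0045 without 9.71 mg/kg, and -0.10 to 0.11 without 1 array. The cause was not tested.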

Other observations

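An r of -0.5 or below, with group means removed, was found for 72 genes with Col3a1, 79 with Sparc, 81 with Des and 53 with Lrat, as a description with no test. The lowest was Bnip3, a mitochondrial protein raised by hypoxia, at -0.67 with Col3a1 and -0.69 with Sparc, Kat2b at -0.67 with Des and Dgkz at -0.73 with Lrat. The neutrophil gene S100a9 stood at -0.51 with Col3a1, -0.49 with Lrat and -0.04 with Dcn. These genes were chosen after their values were seen.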
